A study of Homo sapiens with 9 samples.

Results

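The 9 genes described here are IL24, IL20RB, IL1A, IL1B, IL18, IL33, IL1R1, IL1RAP and IL1RN, out of 26485 genes in the deposited expression tables. They were chosen by name, as the cytokine IL24, a chain of its receptor and genes of the interleukin-1 family, and the choice was made with their measured changes in ASAH1 knockdown cells known. The comparisons of each knockdown with the control therefore describe the selected genes and carry no test. RNA was sequenced from MDA-MB-231, an established human triple-negative breast cancer cell line, in 9 libraries. The cells stably expressed a non-specific control hairpin (NS shRNA, 3 libraries) or 1 of 2 hairpins against ASAH1, called ASAH1 shRNA #1 (3 libraries) and ASAH1 shRNA #2 (3 libraries). ASAH1 encodes acid ceramidase, the lysosomal enzyme that splits ceramide into sphingosine and a fatty acid. All groups shared the same medium, carried a stably expressed hairpin and had no drug treatment in the labels. There was 1 control hairpin, and the labels call the replicates biological without saying whether the hairpins were introduced separately for each, so the p-values measure the spread between these libraries.

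IL-24 is a secreted cytokine of the IL-20 subfamily that binds a receptor built from IL20RB and either IL20RA or IL22RA1, and signals through Janus kinases and STAT proteins. IL-1α and IL-1β bind IL1R1, which then recruits IL1RAP and passes the signal through MYD88 and the IRAK kinases to NF-κB, while IL1RN occupies IL1R1 without signalling. IL-1β and IL-18 are made as precursors that caspase-1 cuts, whereas IL-1α is active before it is cut and IL-33 is stored in the nucleus. In tumour cells the IL-1 family agonists are known for drawing in and activating leukocytes.

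IL24 stood at 1:206897443-206904139 on the plus strand of hg38 and had 7 exons in its main transcript. IL1A (2:112773925-112784493) and IL1B (2:112829751-112836816) were neighbours on the minus strand of chromosome 2, 45258 bases apart, and IL1R1 (2:102064544-102179874) and IL1RN (2:113099315-113134016) lay on its plus strand. IL20RB (3:136946230-137011085) and IL1RAP (3:190514051-190659750) were on the plus strand of chromosome 3. IL18 was at 11:112143253-112164096 on the minus strand and IL33 at 9:6215786-6257983 on the plus strand.

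Promoter windows of 8 of the 9 genes were found in RefSeq (GRCh38.p14), each running from 250 bases before to 50 bases after a transcript start. The windows of 4 genes are shown because they belong to the neighbouring pair whose changes parted between the hairpins (IL1A and IL1B) and to the ligand and receptor chain that were higher with each hairpin (IL24 and IL20RB). They are chr1:206897193-206897492 (plus) for IL24, chr3:136957733-136958032 (plus) for IL20RB, chr2:112784444-112784743 (minus) for IL1A and chr2:112836730-112837029 (minus) for IL1B. Capitals mark matches, on either strand, to TGANTCA (the AP-1 motif), TATAAA (the TATA box) and TGATGNAA (a composite C/EBP-ATF motif).
IL24: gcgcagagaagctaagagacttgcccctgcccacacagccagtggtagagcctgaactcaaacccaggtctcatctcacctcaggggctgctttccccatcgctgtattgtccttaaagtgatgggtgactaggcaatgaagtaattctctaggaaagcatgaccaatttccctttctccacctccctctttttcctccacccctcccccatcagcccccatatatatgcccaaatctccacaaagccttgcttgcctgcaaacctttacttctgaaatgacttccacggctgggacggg
IL20RB: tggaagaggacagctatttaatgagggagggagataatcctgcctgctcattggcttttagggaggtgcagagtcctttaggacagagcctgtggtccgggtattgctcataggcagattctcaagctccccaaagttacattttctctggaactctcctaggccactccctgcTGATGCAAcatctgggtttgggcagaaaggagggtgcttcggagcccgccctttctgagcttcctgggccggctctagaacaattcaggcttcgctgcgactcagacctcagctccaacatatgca
IL1A: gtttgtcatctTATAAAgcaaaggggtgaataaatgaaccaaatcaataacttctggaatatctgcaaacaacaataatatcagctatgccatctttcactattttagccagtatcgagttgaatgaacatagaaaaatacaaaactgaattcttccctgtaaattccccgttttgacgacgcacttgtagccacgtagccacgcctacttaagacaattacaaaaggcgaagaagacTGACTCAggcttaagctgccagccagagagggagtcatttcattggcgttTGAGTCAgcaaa
IL1B: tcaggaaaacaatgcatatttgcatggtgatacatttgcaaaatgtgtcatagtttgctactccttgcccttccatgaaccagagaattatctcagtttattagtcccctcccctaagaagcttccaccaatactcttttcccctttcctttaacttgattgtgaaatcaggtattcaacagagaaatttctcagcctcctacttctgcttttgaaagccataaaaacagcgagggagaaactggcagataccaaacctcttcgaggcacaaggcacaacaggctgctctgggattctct
The IL1A window shown held AP-1 matches that began 12 bases before and 39 bases after the start, and a TATA match 239 bases before it. Another IL1A window (chr2:112784351-112784650), for a different start, held the same AP-1 letters 105 and 55 bases before that start. It held no TATA match. The IL20RB window held a C/EBP-ATF match 76 bases before the start. These letters were absent from the IL24 and IL1B windows. Of 35116 windows of the same length, 7.71% held the AP-1 letters, 11.5% the TATA letters and 3.62% the C/EBP-ATF letters. A looser NF-κB search (GGGNNNNNCC) matched 58.7% of all windows and, of those shown, only that of IL20RB. The motifs do not overlap one another in the windows shown, and a match describes letters, not a bound site.

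Between 23806003 and 49659106 reads fell on genes in each library. The targeted gene ASAH1 fell from 4489 ± 45.4 normalized counts (mean ± SD, n = 3) in NS shRNA to 1327 ± 51.9 with shRNA #1 (limma adjusted p = 9.49e-09), and from 4852 ± 57.9 to 783 ± 22.6 with shRNA #2 (limma adjusted p = 5.42e-10). The 7 markers of the line were all read, with a summed level of 4704 to 5822 CPM (counts per 1000000 reads on genes, the total adjusted by TMM). SPARC, 1 of those expected high, was low, at 52.6 to 79.5 normalized counts in NS shRNA. ERBB2, expected absent or low, had 3181 to 3388 there, while ESR1 and PGR had at most 2 reads. Summed levels in NS shRNA were 40.3 to 47.5 CPM for keratinocyte markers, 34.4 to 38.8 for fibroblast markers and 12.7 to 14.1 for endothelial markers. Of 9 leukocyte markers, TYROBP, a signalling adaptor of myeloid and natural killer cells, had no read in any group. The summed level of those 9 markers was 30.4 to 37.2 CPM in NS shRNA, 12.0 to 12.6 CPM with shRNA #1 and 31.3 to 36.0 CPM with shRNA #2. With shRNA #1 CD14 had 218 normalized counts against 969 in NS shRNA. CSF1R had 166 against 132, with overlapping libraries and no call (limma adjusted p = 0.0857). ITGAM had few reads, at most 27 in a library against at most 6. The fall of CD14 was thus not shared by all leukocyte markers. Their part in the results was not tested. In bulk RNA, fewer cells that express a gene and less RNA per cell cannot be told apart. The normalized counts below are reads divided by the size factor of their library, set separately in the tables of the 2 hairpins, so the same control libraries carry slightly different values in each. Each log2 fold change is a difference on the log2(normalized count + 1) scale.

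IL24 was far higher with both ASAH1 hairpins, and most of all with shRNA #1. In NS shRNA, IL24 had 527, 501 and 507 normalized counts, against 18964, 19055 and 19372 with shRNA #1. In the table of shRNA #2 the control libraries had 569, 544 and 547, against 2607, 2697 and 2782. The lowest knockdown library lay above the highest control library for each hairpin, and the libraries of a group differed little. The log2 fold change of IL24 was 5.22 ± 0.046 (SE) with shRNA #1 and 2.28 ± 0.063 with shRNA #2, or 37.3-fold and 4.86-fold higher. Ordered from the most higher to the most lower, it ranked 5 among 14341 genes with shRNA #1 and 111 among 14250 with shRNA #2. The 2 comparisons share the NS shRNA libraries, here and for all genes below.

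IL20RB, the receptor chain that IL-24 needs, was low in the control and higher with both hairpins, here most with shRNA #2. It had 48.1, 50.1 and 40.6 normalized counts in NS shRNA against 187, 207 and 158 with shRNA #1. With shRNA #2 it had 303, 339 and 368, against 51.9, 54.3 and 43.8. No knockdown library reached down to a control library. The log2 fold change of IL20RB was 1.97 ± 0.15 with shRNA #1 and 2.73 ± 0.14 with shRNA #2, or 3.90-fold and 6.63-fold higher.

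**Figure D1:**
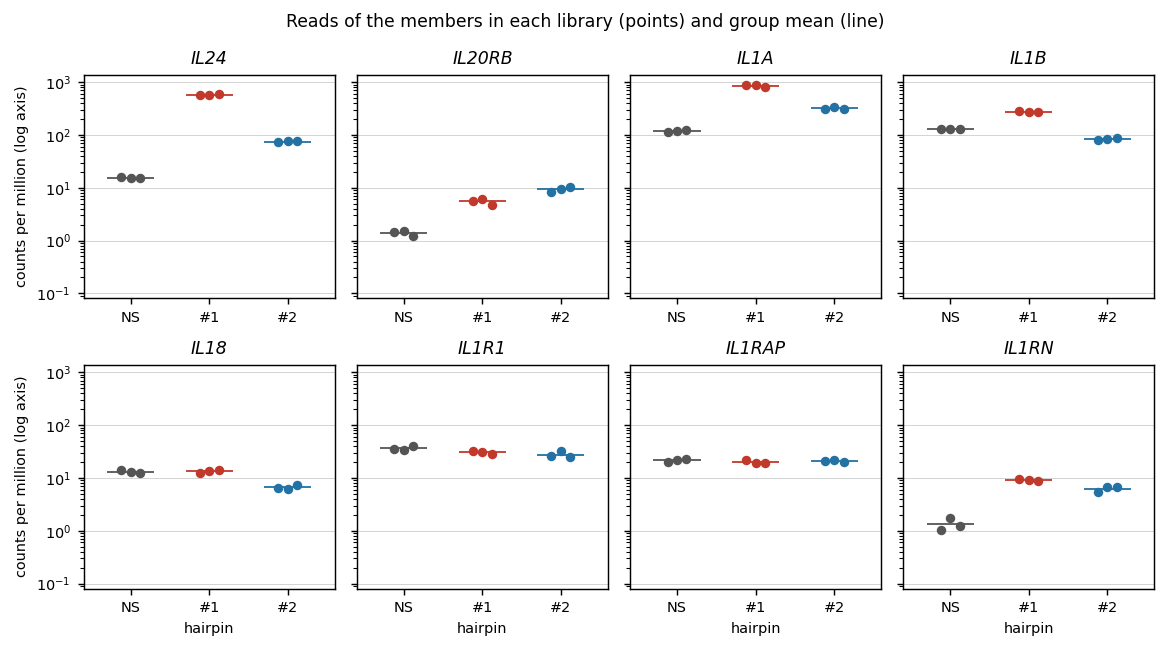
CPM (log axis) of 8 genes in each of 3 libraries (points) of NS shRNA, ASAH1 shRNA #1 and ASAH1 shRNA #2, with the mean of each group as a line. IL24 stood at 15.1 to 15.9 CPM in NS shRNA, 573 to 587 with shRNA #1 and 72.4 to 77.3 with shRNA #2, while IL1B lay above the control with shRNA #1 and below it with shRNA #2.

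IL1A and IL1B, the agonists of IL1R1, parted with the hairpin used. IL1A, whose product is released by damaged cells, had 3781, 3881 and 4133 normalized counts in NS shRNA against 29630, 28787 and 26987 with shRNA #1. With shRNA #2 it had 11257, 12021 and 11099, against 4080, 4213 and 4457. IL1A was thus above the control in all 6 knockdown libraries, with a log2 fold change of 2.86 ± 0.053 and 1.43 ± 0.057 (7.24-fold higher with shRNA #1). IL1B, which encodes the secreted form best known from inflammasome activation, had 4349, 4319 and 4270 in NS shRNA against 9280, 9159 and 9078 with shRNA #1. With shRNA #2 IL1B had 2935, 3052 and 3118, against 4692, 4688 and 4604. The IL1B libraries of shRNA #1 all lay above the control and those of shRNA #2 all below it. Its log2 fold change was 1.09 ± 0.041 with shRNA #1 (2.13-fold higher) and -0.62 ± 0.052 with shRNA #2 (1.54-fold lower).

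IL18, whose precursor is another substrate of caspase-1, overlapped the control with shRNA #1 and lay below it with shRNA #2. It had 459, 435 and 407 normalized counts in NS shRNA and 415, 443 and 465 with shRNA #1, so the groups overlapped. With shRNA #2 it had 229, 219 and 270, against 496, 472 and 439, with no overlap. The log2 fold change of IL18 was 0.024 ± 0.080 with shRNA #1 and -0.97 ± 0.10 with shRNA #2 (1.96-fold lower). IL33, the nuclear cytokine of the family, had 1 read in all 9 libraries together, in a control library, so no fold change was computed.

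Of the receptor chains, IL1R1 was slightly lower and IL1RAP was near the control. IL1R1, which binds IL-1α and IL-1β, had 1150, 1120 and 1359 normalized counts in NS shRNA against 1063, 1031 and 938 with shRNA #1. With shRNA #2 IL1R1 had 921, 1170 and 904, against 1241, 1216 and 1465. The groups did not overlap, but in each comparison the gap between the nearest libraries was small beside the spread within a group. The log2 fold change of IL1R1 was -0.26 ± 0.085 with shRNA #1 and -0.39 ± 0.11 with shRNA #2. IL1RAP, the chain shared by the receptors for IL-1, IL-33 and IL-36, had 654, 730 and 777 in NS shRNA against 713, 645 and 626 with shRNA #1. With shRNA #2 it had 760, 772 and 717, against 706, 793 and 838. Its groups overlapped in both comparisons, and its log2 fold change was -0.12 ± 0.083 (95% interval -0.31 to 0.066) and -0.052 ± 0.082 (-0.23 to 0.13).

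IL1RN, the antagonist that competes with both agonists for IL1R1, was higher with both hairpins from a low start. It had 34.5, 56.9 and 41.5 normalized counts in NS shRNA against 321, 298 and 293 with shRNA #1. With shRNA #2 it had 192, 241 and 237, against 37.3, 61.8 and 44.8. The groups did not overlap. The log2 fold change of IL1RN was 2.78 ± 0.17 and 2.22 ± 0.19, or 6.86-fold and 4.66-fold higher.

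By the rule used across all genes (limma, adjusted p below 0.05), 5 of the 8 members that could be tested were higher and 1 was lower with shRNA #1, where 32.8% of all tested genes were higher and 33.3% lower. With shRNA #2, 4 were higher and 3 lower, against 33.5% and 33.4% of all tested genes. IL33 was under the filter in both. The member counted as lower with shRNA #1 was IL1R1, and it was no longer counted when NS shRNA replicate 3 or shRNA #1 replicate 2 or 3 was left out. These are the contrasts on which the genes were selected, so nothing is read from the counts.

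**Figure D2:**
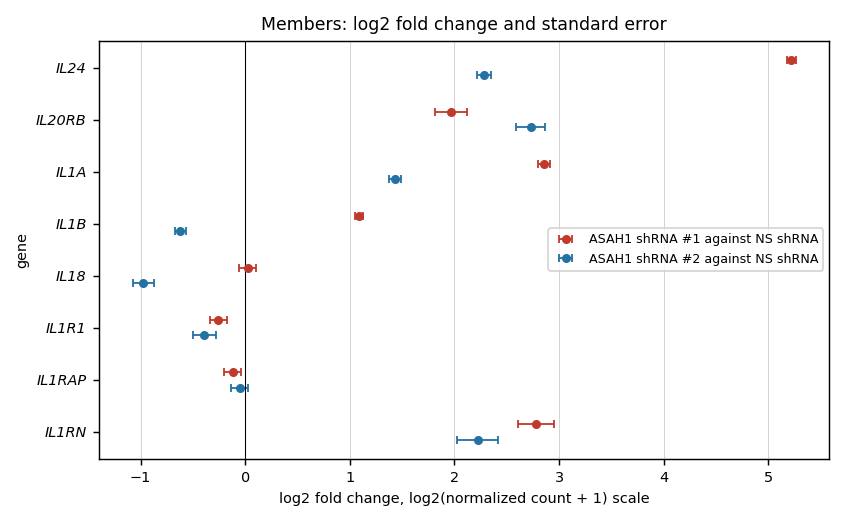
Log2 fold change (horizontal axis, log2(normalized count + 1) scale) of 8 genes with ASAH1 shRNA #1 (red) and ASAH1 shRNA #2 (blue) against NS shRNA, with bars for the standard error. IL24, IL20RB, IL1A and IL1RN lie to the right of 0 with both hairpins, and IL1B lies at 1.09 with shRNA #1 and at -0.62 with shRNA #2.

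The hairpins were then compared with each other. This contrast was not itself used to choose the genes, but it follows from the 2 that were known at the choice. Its p-values therefore describe the selected genes and are no independent test. The reads of the 9 libraries, recovered from the normalized counts, were fitted together by edgeR (quasi-likelihood), with p adjusted over 14714 genes. IL24 was 7.71-fold lower with shRNA #2 than with shRNA #1 (log2 difference -2.95 ± 0.046, adjusted p = 2.48e-12), at 72.4 to 77.3 CPM against 573 to 587 CPM. IL1B, at 81.5 to 86.7 CPM against 275 to 280 CPM, was 3.28-fold lower (-1.71 ± 0.044, adjusted p = 1.24e-10). IL1A, at 308 to 335 CPM against 818 to 895 CPM, was lower too (-1.43 ± 0.052, adjusted p = 1.90e-09). In these 3 cytokines the difference between the hairpins was many times the spread within either group.

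IL18 also differed, at 6.10 to 7.50 CPM with shRNA #2 against 12.5 to 14.1 CPM with shRNA #1 (log2 difference -0.999 ± 0.095, edgeR adjusted p = 3.24e-06). IL1RN was lower by less, at 5.33 to 6.72 CPM against 8.88 to 9.69 CPM (-0.56 ± 0.13, edgeR adjusted p = 0.00338). IL20RB went the other way, at 8.42 to 10.2 CPM with shRNA #2 against 4.77 to 6.24 CPM with shRNA #1 (0.75 ± 0.12, edgeR adjusted p = 0.000234). The receptor chains of IL-1 did not pass. The difference for IL1R1 was -0.14 (95% interval -0.37 to 0.095, edgeR adjusted p = 0.278) and that for IL1RAP 0.064 (-0.10 to 0.23, edgeR adjusted p = 0.480). Without shRNA #2 replicate 2, IL1R1 passed at -0.27 (edgeR adjusted p = 0.021). In all, 1 of 8 tested members was higher and 5 were lower with shRNA #2, against 31.1% and 32.1% of all tested genes (4581 and 4730 genes, or 3744 and 5607 under upper quartile factors). ASAH1 itself was 1.84-fold lower with shRNA #2 than with shRNA #1 (-0.88 ± 0.051, edgeR adjusted p = 6.82e-08). IL24, IL1A, IL1B, IL18 and IL1RN were thus higher, and IL20RB lower, in the knockdown group that kept more ASAH1 RNA. NS shRNA, with the most ASAH1 RNA, had less IL24, IL1A, IL1RN and IL20RB than either knockdown group. The part of knockdown depth in these differences was not tested.

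Levels were compared between genes per length, as CPM divided by the annotated exon length in kilobases. In NS shRNA, IL1A led at 58.6, followed by IL1B at 43.1, IL24 at 7.78, IL1R1 at 5.11, IL18 at 5.01, IL1RAP at 1.93, IL20RB at 0.570 and IL1RN at 0.357. The libraries of IL1R1 and IL18 overlapped in this order. With shRNA #1 the order began with IL1A at 426, IL24 at 292 and IL1B at 92.1, and then dropped to IL18 at 5.11, IL1R1 at 4.29, IL1RN at 2.46, IL20RB at 2.28 and IL1RAP at 1.78, where IL1RN and IL20RB overlapped. With shRNA #2 it began with IL1A at 158, IL24 at 37.9 and IL1B at 28.1, above IL1R1 at 3.90, IL20RB at 3.84, IL18 at 2.55, IL1RAP at 1.86 and IL1RN at 1.66. There IL1R1 overlapped IL20RB, and IL1RAP overlapped IL1RN. By this measure IL24 stood below IL1B in the control and above it in every knockdown library. The order depends on the division by exon length. In CPM alone IL24 stayed below IL1B with shRNA #2, at 72.4 to 77.3 against 81.5 to 86.7. Before the division IL1A was also below IL1B in NS shRNA, at a mean of 118 CPM against 130.

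Ranked per length among all genes with reads, IL1A stood 651 of 17474 from the top in NS shRNA, 31 of 17321 with shRNA #1 and 167 of 17067 with shRNA #2. IL24 ranked 5344 in NS shRNA, 55 with shRNA #1 and 1277 with shRNA #2, and IL1B ranked 987, 346 and 1842.

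**Figure D3:**
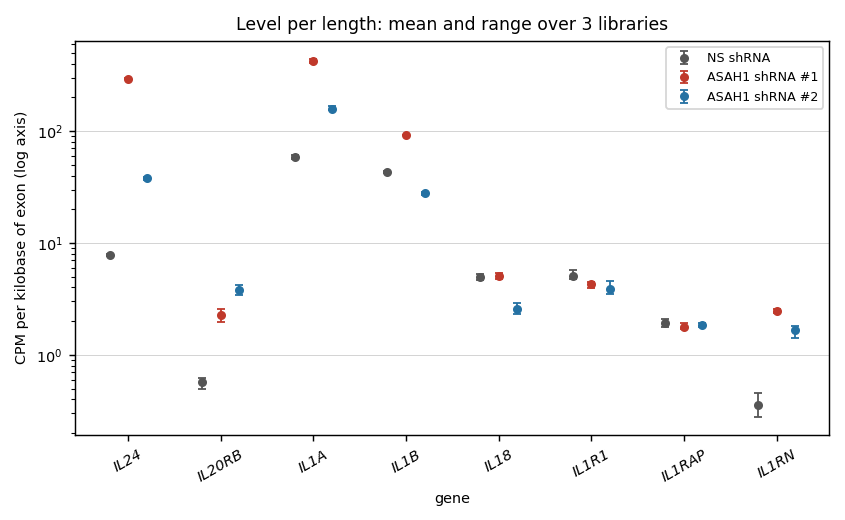
Level per length (CPM per kilobase, log axis) of 8 genes in NS shRNA, ASAH1 shRNA #1 and ASAH1 shRNA #2, as the mean (point) and the range over 3 libraries (bar). IL1A led in all 3 groups, and IL24 stood at 7.78 in NS shRNA, 292 with shRNA #1 and 37.9 with shRNA #2.

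The balance within the IL-1 system was read from ratios of these levels. The ratio of IL1A to IL1B was 1.36 ± 0.075 (SD, n = 3) in NS shRNA, 4.63 ± 0.17 with shRNA #1 and 5.64 ± 0.29 with shRNA #2, and no library of one group reached another. Per length, IL1A thus exceeded IL1B by more with both hairpins, although IL1B was higher with one and lower with the other. The ratio of the agonists, IL1A plus IL1B, to the antagonist IL1RN was 297 ± 70.4 in NS shRNA, 211 ± 5.36 with shRNA #1 and 113 ± 13 with shRNA #2. Its control libraries ran from 220 to 359 and lay above all knockdown libraries, whose highest was 217. IL1RN had only 33, 58 and 45 reads in the control libraries, so the narrow gap to shRNA #1 rests on few reads. The agonists' RNA exceeded the antagonist's by 103-fold to 359-fold over the 9 libraries.

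Further genes were taken from lists of textbook roles, drawn up with earlier results of these data known. Their p-values and shares therefore describe these genes and test no list. The partner chains of IL20RB in the IL-24 receptor had few reads in all groups. IL20RA, which pairs with IL20RB, had 17.7 to 20.3 normalized counts in NS shRNA and 12.0 to 16.1 with shRNA #1, a difference that did not pass (limma adjusted p = 0.175) but did under limma without the trend (0.0168). With shRNA #2 IL20RA was down to at most 2 reads in a library, from up to 22 reads in NS shRNA, and since it passed the filter through the control libraries no test is given. IL22RA1, the other partner, had a log2 fold change of -0.61 ± 0.21 with shRNA #1 (limma adjusted p = 0.0287) and of -1.59 ± 0.26 with shRNA #2 (limma adjusted p = 0.000307). With shRNA #1 the call of IL22RA1 was lost when NS shRNA replicate 2 or 3, or shRNA #1 replicate 2 or 3, was left out (limma adjusted p = 0.0646 to 0.0981), with no filter on low values (0.0619) and under DESeq2 (adjusted p = 0.0695). Of the 11 other ligands and class II receptors of this subfamily, 4 passed the filter in each comparison. With shRNA #1, 1 was higher and 1 lower (25% each), beside 32.8% and 33.3% of all tested genes. With shRNA #2 none was higher, beside 33.5% of all tested genes. There IL22RA1 and IL10RB were lower, as were 33.4% of all tested genes, and IL20RA is not counted. So few genes give no share to read.

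Of 10 kinases, STAT proteins and inhibitors that act behind the IL-20 receptors, 1 was higher and 6 were lower in each comparison with NS shRNA, or 10% and 60%, beside 32.8% and 33.3% of all genes with shRNA #1 and 33.5% and 33.4% with shRNA #2. The median log2 fold change of the 10 was -0.45 with shRNA #1 and -0.35 with shRNA #2, beside 0.0013 and 0.013 over all genes. PTPN6, a phosphatase that restrains cytokine receptors, had log2 fold changes of -1.21 ± 0.15 (limma adjusted p = 6.36e-05) and -1.18 ± 0.15 (limma adjusted p = 4.57e-05). STAT3, the main effector of IL-24, had log2 fold changes of -0.011 and -0.13 that did not pass (limma adjusted p = 0.847 and 0.0574).

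Of the other IL-1 family ligands, 5 of 6 had too few reads to test with shRNA #1 and all 6 with shRNA #2. The exception was IL36RN, the antagonist of the IL-36 receptor, which had at most 3 reads in a control library, 27.3 to 38.8 normalized counts with shRNA #1 and at most 4 reads with shRNA #2. It passed the filter with shRNA #1 through the knockdown libraries, so no test is given. IL1RL2, the chain that binds IL-36 and that lies 7132 bases beyond IL1R1, rose by a log2 fold change of 2.24 ± 0.17 with shRNA #1 (limma adjusted p = 2.67e-06) and 1.67 ± 0.18 with shRNA #2 (limma adjusted p = 1.84e-05). IL1RAPL1, a synaptic member of the receptor family, rose by 1.35 ± 0.10 and 0.76 ± 0.097 (limma adjusted p = 2.81e-06 and 5.56e-05). SIGIRR, a receptor that dampens IL-1 signals, had log2 fold changes of -1.62 ± 0.14 and -0.80 ± 0.14 (limma adjusted p = 7.45e-06 and 0.000510). Among 9 other receptors and binding proteins, 2 were higher and 1 lower of 5 tested with shRNA #1, and 3 higher and 1 lower of 4 tested with shRNA #2. These are 40% and 20%, beside 32.8% and 33.3% of all tested genes, and 75% and 25%, beside 33.5% and 33.4%. With so few genes tested, nothing is read from these shares.

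Genes that cut or release IL-1 family cytokines moved in both directions. Of 18 on the list 14 could be tested, of which 3 were higher and 7 lower with shRNA #1 (median log2 fold change -0.31), and 2 were higher and 7 lower with shRNA #2 (median -0.45). Over all genes 32.8% were higher and 33.3% lower with shRNA #1 (median 0.0013), and 33.5% and 33.4% with shRNA #2 (median 0.013). CASP1, which cuts the precursors of IL-1β and IL-18, fell from 82.2 to 90.0 normalized counts in NS shRNA to 42.6 to 48.0 with shRNA #1 (log2 fold change -0.91 ± 0.14, limma adjusted p = 0.000363). With shRNA #2 CASP1 rose instead, to 134 to 157 from 88.6 to 97.1 (0.61 ± 0.13, limma adjusted p = 0.00174). In the direct comparison CASP1 was higher with shRNA #2 by 1.53 on the log2 scale (edgeR adjusted p = 2.39e-06), while IL1B was lower. PYCARD, the adaptor of inflammasomes, had a log2 fold change of -0.95 ± 0.15 and -1.02 ± 0.19 (limma adjusted p = 0.000323 and 0.000800). GSDMD, which forms the pore through which IL-1β leaves the cell, had -1.11 ± 0.11 and -0.81 ± 0.13 (limma adjusted p = 1.83e-05 and 0.000239). CASP1 was picked for mention after its values were seen.

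Behind IL1R1, 7 of 20 relay genes were higher and 7 lower with shRNA #1, and 6 higher and 4 lower of 19 tested with shRNA #2. With shRNA #1 these shares (35% and 35%) were near those of all tested genes (32.8% and 33.3%), and with shRNA #2 they were 31.6% and 21.1% beside 33.5% and 33.4%. IRAK2, a kinase that sustains the signal, rose by 1.28 ± 0.053 and 0.46 ± 0.063 on the log2 scale (limma adjusted p = 8.25e-08 and 9.09e-05). IRAK3, which restrains it, had log2 fold changes of -0.81 ± 0.084 and -2.69 ± 0.12 (limma adjusted p = 2.42e-05 and 4.05e-08).

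Genes known to respond to IL-1 were set beside the cytokines. Of 16, 12 were higher and 2 lower with shRNA #1 (median log2 fold change 0.74), whereas 6 were higher and 7 lower with shRNA #2 (median -0.14). These are 75% and 12.5% with shRNA #1, beside 32.8% and 33.3% of all genes, and 37.5% and 43.8% with shRNA #2, near the 33.5% and 33.4% of all genes. In the direct comparison 2 were higher and 11 lower with shRNA #2 (12.5% and 68.8%, beside 31.1% and 32.1% of all genes; median -0.68, beside -0.0052 over all genes). CSF2, the granulocyte-macrophage growth factor, rose with both, by 1.95 ± 0.057 and 2.12 ± 0.072 (limma adjusted p = 1.16e-08 and 8.06e-09). IL6 also rose with both, by 1.69 ± 0.050 and 1.09 ± 0.059 (limma adjusted p = 1.16e-08 and 1.45e-07). CXCL1, a neutrophil attractant, fell with both, at -1.20 ± 0.043 and -1.12 ± 0.061 (limma adjusted p = 3.19e-08 and 1.46e-07).

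Other genes of that list moved with 1 hairpin or in opposite directions. CSF3, the granulocyte growth factor, went from 956 to 1020 normalized counts in NS shRNA up to 1512 to 1669 with shRNA #1, and down to 66.1 to 90.8 with shRNA #2 from 1030 to 1101. Its log2 fold changes were 0.68 ± 0.060 and -3.82 ± 0.12 (limma adjusted p = 8.03e-06 and 7.11e-09), and the hairpins differed by -4.49 (edgeR adjusted p = 4.49e-11). TNFAIP3, a brake on NF-κB, rose by 2.12 ± 0.052 with shRNA #1 (limma adjusted p = 5.25e-09), and its log2 fold change with shRNA #2 was -0.10 ± 0.063 (limma adjusted p = 0.168), which passed under upper quartile rescaling (-0.19, limma adjusted p = 0.0172). LIF rose by 1.34 ± 0.052 with shRNA #1 (limma adjusted p = 6.06e-08) and had 0.045 ± 0.061 with shRNA #2 (limma adjusted p = 0.533). CXCL2 and CXCL3 had log2 fold changes of 1.48 ± 0.049 and 0.29 ± 0.10 with shRNA #1 (limma adjusted p = 2.29e-08 and 0.0332), and of -0.20 ± 0.063 and -1.13 ± 0.11 with shRNA #2 (limma adjusted p = 0.0161 and 7.37e-06). The call of CXCL3 with shRNA #1 was lost without NS shRNA replicate 1 or shRNA #1 replicate 1 or 3 (limma adjusted p = 0.0629 to 0.124) and under limma without the trend (0.0573), and that of CXCL2 with shRNA #2 without NS shRNA replicate 1 or 2 or shRNA #2 replicate 1 (0.0524 to 0.0776). PTGS2, the inducible cyclooxygenase, rose by 1.20 ± 0.25 with shRNA #1 (limma adjusted p = 0.00221) from 12.8 to 17.8 normalized counts, and had -0.17 ± 0.32 with shRNA #2 (limma adjusted p = 0.658).

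**Figure D4:**
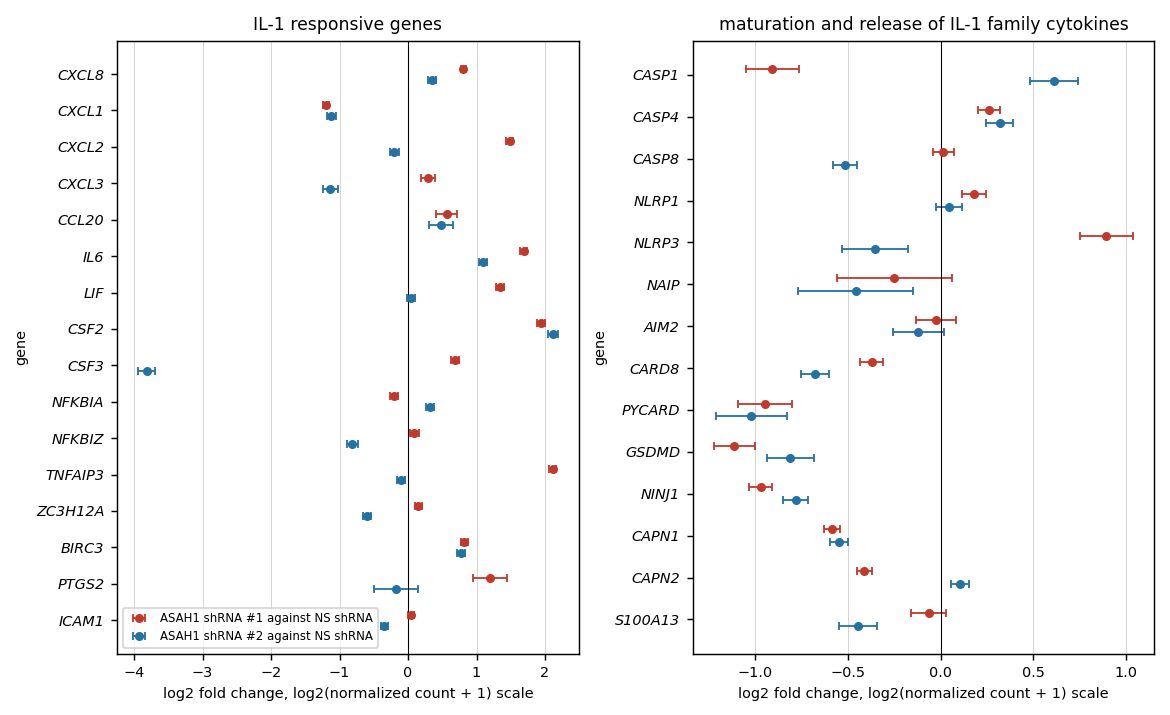
Log2 fold change against NS shRNA (horizontal axis, log2(normalized count + 1) scale, bars for the standard error) of 16 IL-1 responsive genes (left) and of 14 tested genes that mature or release IL-1 family cytokines (right), with ASAH1 shRNA #1 in red and ASAH1 shRNA #2 in blue. CSF2 and IL6 lie to the right of 0 with both hairpins, CSF3 lies at 0.68 and at -3.82, and CASP1 at -0.91 and at 0.61.

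IL1A and IL1B are each other's nearest protein-coding gene on 1 side, and IL1RL2, described above, is the nearest on 1 side of IL1R1. IL20 and PIGR, 28220 and 24383 bases from IL24, had at most 16 and 14 reads in a library. SOX14, TPD52L3, TMEM207, GMNC and IL1F10 had at most 5, IL37 at most 18, TEX12 at most 23 and IL1R2 at most 13. CKAP2L, 9261 bases from IL1A, had log2 fold changes of 0.18 and -0.099 that did not pass (limma adjusted p = 0.0994 and 0.392). PSD4, on the far side of IL1RN, had -0.041 and -0.059 (limma adjusted p = 0.592 and 0.551), and SLC35G2, next to IL20RB, had -0.061 and -0.097 (limma adjusted p = 0.382 and 0.225). SDHD, beside IL18, fell with both (-0.41 and -0.28, limma adjusted p = 4.22e-05 and 0.00117). RANBP6, beside IL33, had 0.0034 with shRNA #1 (limma adjusted p = 0.971) and rose by 0.47 with shRNA #2 (limma adjusted p = 0.000249).

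The genes most like each member were taken as those with the smallest distance between centred log2 CPM profiles over the 9 libraries, among 14075 genes tested in both comparisons. The libraries fall into 3 groups, so these distances mostly compare group means and carry no p. The nearest to IL24 were ALOXE3, a lipoxygenase of the skin, at a distance of 1.59, EPB41L3 at 2.04 and MMP1, an interstitial collagenase, at 2.19. IL1A was matched most closely by SESN2 (0.284) and by DDIT3 (0.559), both stress-response genes, with LOC101929705 between them. The nearest to IL1B were FBXO32 (0.157), ROBO4 (0.163) and CD22 (0.201), to IL20RB CALB1, MKX and PSAT1 (0.511 to 0.571), and to IL1RN JPH1, WDR78 and ZFP69B (0.523 to 0.732). IL18 was nearest to MAPK13, FBXW4 and POLL (0.179 to 0.219), IL1R1 to SPATA13, MXI1 and VWA8 (0.158 to 0.1995) and IL1RAP to KNTC1, FBXO28 and PRKD3 (0.111 to 0.123).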

How the data were processed

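Strand-specific RNA libraries of MDA-MB-231 cells were read in 9 samples, 3 per group, grouped by their labels. Per the labels, Trimmomatic 0.36, STAR 2.7.1a, HTSeq and DESeq2 1.28 were used on hg38, and the study's methods give counting on the reverse strand; another of its paragraphs names Bowtie2, RSEM and edgeR. The labels describe both oligo-dT selection and ribosomal RNA depletion. The authors deposited, for each hairpin with the control, a normalized signal (reads divided by a size factor) for 26485 genes. Their log2 fold changes, standard errors, Wald score and p-values, also deposited by the authors, were not used. All per-sample columns were matched, with 0 left over, and 28 symbols turned into dates were read from the other table.

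Every signal was a whole number of reads (100% within 0.05 reads) divided by 1 factor per library, and the reads were recovered. Each hairpin was compared with NS shRNA by limma 3.58.1 with an intensity trend on log2(value + 1), for genes whose mean reached 10, two-sided, with p-values adjusted by Benjamini-Hochberg and a threshold of 0.05. Differences between the 2 hairpins were tested by edgeR 4.0.16 (quasi-likelihood, TMM). R 4.3.3, DESeq2 1.42.0 as an alternative, Python 3.11.15, pandas 2.3.3 and matplotlib 3.10.9 were used, and the fits were tested on simulated data. Gene positions and exon lengths came from GENCODE release 44. Whether same-numbered replicates form pairs is not known, and the main fits treated the libraries as unpaired. The members and the 7 pathway lists (90 genes) were chosen with earlier results of these data known, so p-values and shares of list genes are descriptions. Named were all members, each list gene with an adjusted p below 0.05 and a log2 fold change of at least 1 in size against NS shRNA, the neighbours of the members and the 3 genes nearest to each in profile. STAT3 and CASP1 were added after their values were seen. Gene lists followed textbook roles and were not tested as sets. The alternatives were other pseudocounts, filters, scalings and tools, a replicate block and each library left out. Depth was 30989598 to 34867548 reads on genes in NS shRNA, 23806003 to 39791698 with shRNA #1 and 35653318 to 49659106 with shRNA #2, so genes under about 10 reads have no usable fold change.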

Additional observations from a re-analysis of the deposited data

Results flagged for a closer look

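For 6 members the effect differed between the hairpins, by the edgeR test of the difference itself (shRNA #2 against shRNA #1, adjusted over 14714 genes). The members were chosen with both contrasts behind this difference known, so the result describes them. The log2 difference was -2.946 for IL24, -1.714 for IL1B, -1.432 for IL1A, -0.9992 for IL18 and -0.5566 for IL1RN, each lower with shRNA #2, and 0.7537 for IL20RB, which was higher with it. No library of one hairpin reached a library of the other in these 6 genes. For IL1B the 3 libraries of shRNA #1 moved up and the 3 of shRNA #2 moved down from NS shRNA. No group had more than 3 libraries, so no single library could be tested as standing apart.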

How the results depend on the processing

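Of 158 recomputed counts of members or list genes, 152 stayed within 1.5 times the reported count. The exception was the number of members lower with shRNA #1, which is the single gene IL1R1. It went from 1 to 0 under limma without the trend and under 1 limma fit of all 9 libraries, and ranged from 0 to 1 when each library was left out; NS shRNA replicate 3 and shRNA #1 replicates 2 and 3 each removed the call. With the replicate block the count was also 0; no other count of members changed side. Same-numbered deviations correlated between -0.686 and -0.162 for NS shRNA with a hairpin, and between 0.033 and 0.561 for the 2 hairpins. Differently numbered libraries were not set beside them, so whether replicate numbers pair the libraries is not known. The block also removed the calls of IL22RA1 (limma adjusted p = 0.0707) and CXCL3 (0.0865) with shRNA #1 and CXCL2 (0.0756) with shRNA #2. IL1R1 also differed between the hairpins without shRNA #2 replicate 2 (-0.27, edgeR adjusted p = 0.021).

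Of 376 recomputed values of members, 365 kept direction and side of the threshold, as did 597 of 617 for list genes. Values near 0 changed sign. IL18 with shRNA #1 ran from -0.021 (without NS shRNA replicate 3) to 0.068 when each library was left out, with -0.015 without shRNA #1 replicate 3. IL1RAP with shRNA #2 ran from -0.12 to 0.0023 (without NS shRNA replicate 3) when each library was left out, and between the hairpins -0.018 under upper quartile factors. With shRNA #2, LIF was -0.044 under upper quartile rescaling and PTGS2 ran from -0.35 to 0.043 (without shRNA #2 replicate 1) when each library was left out. With shRNA #2, upper quartile rescaling took the median over all genes from 0.013 to -0.077 and the split of calls from 4780 higher and 4758 lower to 4004 and 5522. Between the hairpins, upper quartile factors gave 3744 higher and 5607 lower in place of 4581 and 4730. The directions given for IL24, IL20RB, IL1A, IL1B and IL1RN held under all alternatives run. Depth left IL33, with 1 read in all 9 libraries, untested.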
